A study of Rattus norvegicus with 44 samples.

Results

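The mitochondrial respiratory chain genes were described in the cortex of Sprague-Dawley rats after permanent middle cerebral artery occlusion (pMCAO). Members were all genes of the series' normalized table whose symbol begins with Nduf, Uqcr, Cox4 to Cox8 or Atp5, or is Sdha, Sdhb, Sdhc or Sdhd. This rule, which uses names and no measured value, found 22 of the 9763 gene symbols in the table, read by 25 probes. Complex I was represented by 7 subunits and 2 assembly factors, complex III by 2 subunits, complex IV by 6 subunits and complex V by 4 subunits and Atp5sl. No complex II gene was in the table.

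Adult rats were ligated permanently on the right middle cerebral artery under ketamine, diazepam and atropine with meloxicam analgesia, in a model in which both carotid arteries are also occluded for a time, so that flow to the opposite hemisphere falls too. Infarct core, periinfarct area and contralateral cortex were taken at 24 h and at 3 d from the same ischemic animals. Sham rats had the same surgery without the infarct, and ipsilateral and contralateral cortex were taken from them at 24 h and 3 d, while healthy rats had no operation and gave ipsilateral cortex. Each of these 11 groups had 4 one-colour Agilent arrays (44 arrays on 11 slides), and each array held RNA pooled from 3 rats, so that an array averages several animals and the spread between arrays is the spread between pools. Between 61.4% and 76.9% of the probes on an array were well above background, and the number of arrays limits the precision.

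The respiratory chain passes electrons from NADH (complex I, the Nduf genes) and succinate (complex II, the Sdh genes) through complex III (Uqcr) to cytochrome c oxidase (complex IV, Cox), which reduces oxygen, while the ATP synthase (complex V, Atp5) uses the proton gradient they build to make ATP. Neurons depend on it for most of their ATP, and occluded tissue loses both the oxygen and the substrate it needs. Some complex IV subunits have tissue-specific forms: Cox6a2 is the form of heart and skeletal muscle, Cox6b2 the testis form, and Cox4i2 a form found in lung that is linked to hypoxia.

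The table held only part of the chain. Its authors removed probes whose log2 values varied by less than 2.5% (coefficient of variation, CV) over the arrays, and chain genes are bright and steady: 60 other chain genes were found on the array through RefSeq names, 57 of which failed only this part of the filter, and 58 of which were well above background on all 44 arrays. The members are therefore the chain genes that varied most for their level over these arrays, and such a filter also favours dim probes. Their median mean log2 signal was 8.62, against 13.30 for the 60 other genes. The size of change of the members so does not stand for the chain. The 60 genes left out were analysed without the filter and are described after the members.

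Promoters are shown for members that moved together or in opposite directions, as RefSeq gives them for the assembly GRCr8 (250 bases before to 50 after the gene start, written in the gene's own direction). Of the 22 members, 15 had an entry. Capitals mark the letters searched on both strands, which were GCGCATGC for NRF1, CCGGAAG for the ETS family, AAGATGGC for YY1 and ACGTG, the core of the hypoxia response element. None of these motifs contains another. Ndufs1 (chr9:72073556-72073855, minus strand) and Uqcrc1 (chr8:118467973-118468272, plus strand) fell together, Ndufs4 (chr2:47794865-47795164, minus strand) fell in every ischemic group, and Cox6b2 (chr1:78122621-78122920, plus strand) rose.
Ndufs1: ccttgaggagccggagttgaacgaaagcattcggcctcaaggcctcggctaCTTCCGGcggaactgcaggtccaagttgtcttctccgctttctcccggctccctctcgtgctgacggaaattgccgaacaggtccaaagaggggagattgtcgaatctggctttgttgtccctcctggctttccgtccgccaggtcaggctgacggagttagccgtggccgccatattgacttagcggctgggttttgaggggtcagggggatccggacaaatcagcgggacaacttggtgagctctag
Uqcrc1: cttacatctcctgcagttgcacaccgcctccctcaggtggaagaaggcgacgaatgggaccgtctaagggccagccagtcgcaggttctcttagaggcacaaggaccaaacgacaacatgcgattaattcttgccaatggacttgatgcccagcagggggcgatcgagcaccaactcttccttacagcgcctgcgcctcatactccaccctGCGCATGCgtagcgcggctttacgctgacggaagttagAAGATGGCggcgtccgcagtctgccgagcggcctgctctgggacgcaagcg
Ndufs4: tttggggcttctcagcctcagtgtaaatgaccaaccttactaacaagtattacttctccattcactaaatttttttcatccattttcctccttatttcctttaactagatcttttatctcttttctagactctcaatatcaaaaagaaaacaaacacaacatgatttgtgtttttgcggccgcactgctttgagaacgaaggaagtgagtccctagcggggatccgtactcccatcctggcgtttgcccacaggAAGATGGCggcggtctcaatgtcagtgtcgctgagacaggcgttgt
Cox6b2: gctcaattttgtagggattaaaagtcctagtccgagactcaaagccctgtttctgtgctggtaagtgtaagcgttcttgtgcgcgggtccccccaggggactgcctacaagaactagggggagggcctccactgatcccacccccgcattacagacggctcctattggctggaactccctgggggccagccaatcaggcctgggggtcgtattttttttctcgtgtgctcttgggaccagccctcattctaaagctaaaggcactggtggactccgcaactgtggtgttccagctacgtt
In these windows Ndufs1 holds the ETS letters, Uqcrc1 the NRF1 and the YY1 letters and Ndufs4 the YY1 letters, while the Cox6b2 window holds none of the 4. Over the 15 member promoters, NRF1 letters were in 2 (13.3%), ETS letters in 4 (26.7%), YY1 letters in 2 (13.3%) and the hypoxia core in 4 (26.7%). Over 54 promoters of the other chain genes the shares were 16.7%, 31.5%, 18.5% and 24.1%, and over all 33469 rat promoters they were 2.47%, 8.75%, 3.17% and 19.3%. A match of letters is a description of the window and not a bound site.

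Each ischemic group was compared with healthy cortex, which asks which chain transcripts differ in core and periinfarct area early and late after occlusion. Signals are log2 of the normalized intensity of 1 probe per gene (the brightest that passed the filters), differences are log2 of group mean over healthy mean, and a gene was called when limma's adjusted p (Benjamini-Hochberg over 30539 probes) was below 0.05. Over the 4 comparisons there were 26 calls in 88 member tests, of which 21 were lower and 5 higher, and they fell on 11 of the 22 genes. The lower calls were in complexes I, III and V, and the higher calls were the complex IV genes Cox6a2 and Cox6b2 and the complex I assembly factor Ndufaf1. No other complex IV member was called in these comparisons.

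Core arrays at 24 h had 1 member higher and 6 lower, where 15.9% of the table's tested probes were called higher and 20.9% lower. Periinfarct arrays at 24 h had 1 higher and 8 lower, against 18.1% and 27.4% of the table's probes. In the core at 3 d, 2 rose and 6 fell, against 23.1% and 34.7%, and in the periinfarct area at 3 d 1 rose (Cox6b2) and 1 fell (Ndufs4), against 12.5% and 10.8%. In both directions together 31.8%, 40.9%, 36.4% and 9.09% of the members were called in that order, beside 36.8%, 45.5%, 57.8% and 23.3% of the table's probes, so that the share of members was below that of the table in each comparison. Calls of at least 2-fold were made for 1 member in the core at 24 h (12.6% of the table's probes), 2 in the periinfarct area at 24 h (17.1%), 1 in the core at 3 d (28.3%) and 0 in the periinfarct area at 3 d (8.05%). Median log2 differences of the members were -0.03, 0.09, -0.28 and -0.28 in that order, beside -0.08, -0.06, -0.21 and -0.10 over all probes tested.

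**Figure D1:**
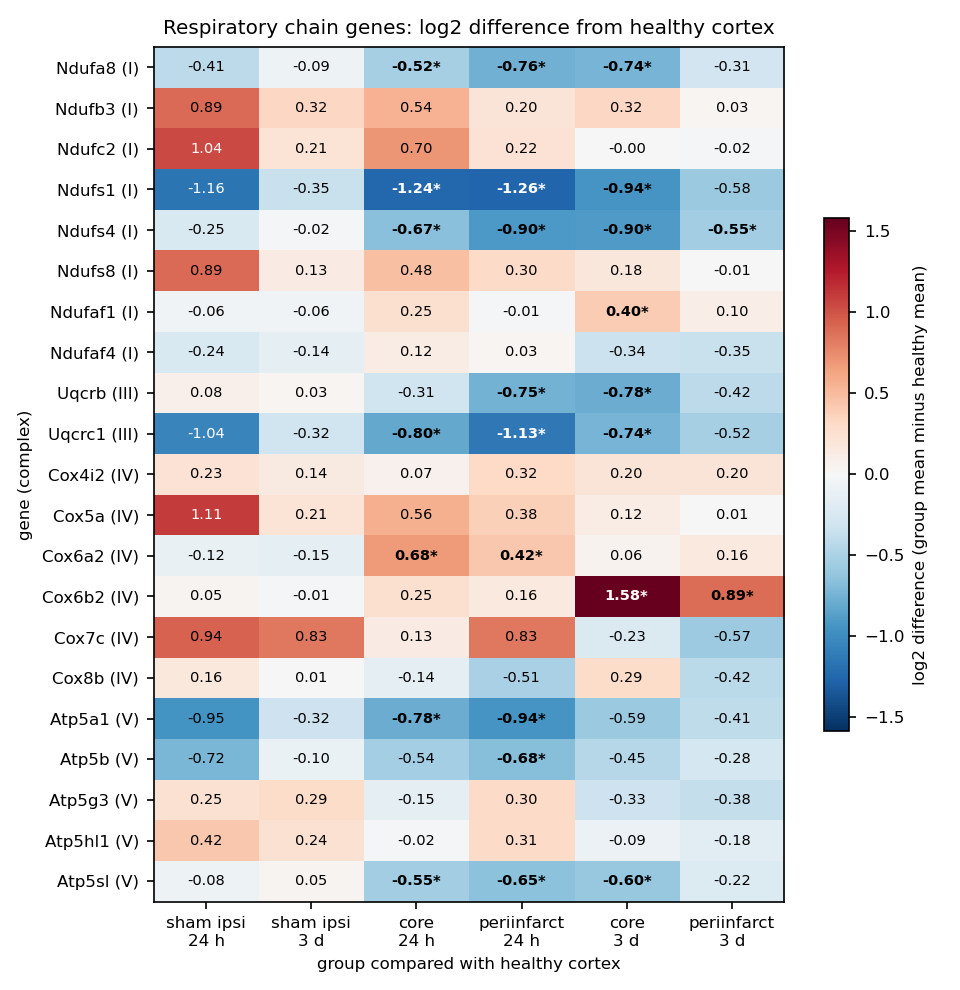
Log2 difference from healthy cortex for 21 of the 22 members (rows, with the complex) in the 2 sham ipsilateral and the 4 ischemic groups (columns); colour and number give the difference of means of 4 arrays, and bold with a star marks an adjusted p below 0.05. Ndufs4 is starred in all 4 ischemic columns, and Ndufs1, Uqcrc1, Atp5a1 and Atp5b are about as low in sham cortex at 24 h as in ischemic cortex.

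Ndufs4, an accessory subunit of complex I near its NADH-oxidizing end, was the 1 member called in all 4 ischemic groups. Its log2 signal was 8.86, 8.85, 8.92 and 8.74 in the 4 healthy pools. It was 8.20, 8.05, 8.26 and 8.20 in the core at 24 h and 8.01, 8.03, 7.93 and 7.78 in the periinfarct area at 24 h, so that no array of either overlapped healthy cortex. The fall was 0.67 ± 0.18 (SE) on the log2 scale in the core (adjusted p = 0.00532, limma), where the signal dropped 1.59-fold, and 0.90 ± 0.18 in the periinfarct area (adjusted p = 0.00018, limma). At 3 d the core arrays read 7.97, 7.94, 8.60 and 7.27, a difference of -0.90 ± 0.18 (adjusted p = 8.82e-05, limma), and the periinfarct arrays 8.21, 7.83, 8.75 and 8.37, a difference of -0.55 ± 0.18 (adjusted p = 0.0307, limma). At 3 d pool 11 was the highest in both areas, and in the periinfarct area it lay within the healthy range. Sham ipsilateral cortex read 8.51, 8.64, 8.50 and 8.73 at 24 h and 8.86, 8.93, 8.53 and 8.98 at 3 d, so that every ischemic array at 24 h lay below every sham ipsilateral array of that time. Against sham of the same time Ndufs4 was called in the periinfarct area at 24 h (-0.66, adjusted p = 0.00622, limma), the core at 3 d (-0.88) and the periinfarct area at 3 d (-0.54, adjusted p = 0.044, limma), but not in the core at 24 h (-0.42). Its call in the periinfarct area at 3 d was lost without periinfarct pool 9 (adjusted p = 0.0841), without periinfarct pool 10 (0.204) and without any one of healthy pools 17, 18 and 19 (0.0605 to 0.0745).

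Ndufs1, the largest complex I subunit and a carrier of its iron-sulfur clusters, had the deepest falls among the members. Healthy pools read 10.37, 10.68, 10.92 and 10.60. The core at 24 h read 8.97, 9.12, 9.61 and 9.90 and the periinfarct area 9.03, 9.42, 9.30 and 9.78, all below the lowest healthy pool. The differences were -1.24 ± 0.36 (adjusted p = 0.00923, limma) and -1.26 ± 0.36 (adjusted p = 0.00628, limma), falls of 2.37-fold and 2.39-fold. At 3 d the core arrays spread from 8.99 to 10.54, with pool 11 in the healthy range, and the difference was -0.94 ± 0.36 (adjusted p = 0.0323, limma). The periinfarct area at 3 d read 9.88 to 10.29, wholly below healthy cortex, with a difference of -0.58 that was not called (adjusted p = 0.301, limma). The call in the core at 3 d was lost without any one of core pools 9, 10 and 12 (adjusted p = 0.0516 to 0.144) and of healthy pools 18, 19 and 20 (0.0501 to 0.084).

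Uqcrc1, a core subunit of complex III, read 9.93, 9.91, 10.18 and 10.00 in healthy cortex. It was 8.82, 9.17, 9.34 and 9.47 in the core at 24 h and 8.73, 8.91, 8.87 and 9.00 in the periinfarct area at 24 h. The differences were -0.80 ± 0.26 (adjusted p = 0.0204, limma) and -1.13 ± 0.26 (adjusted p = 0.001, limma), the latter a fall of 2.19-fold. It fell by 0.74 in the core at 3 d (adjusted p = 0.021, limma), although pool 11 read 10.14 there and the other 3 pools 8.62 to 9.25. That call was lost when core pool 10, core pool 12 or healthy pool 19 was left out (adjusted p = 0.061, 0.126 and 0.0555), and the call in the core at 24 h without core pool 1 or healthy pool 19 (0.0789 and 0.0582).

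The catalytic subunits of the ATP synthase, Atp5a1 (alpha) and Atp5b (beta), followed the same course. Atp5a1 read 12.88 to 13.44 in healthy cortex, 12.09 to 12.78 in the core at 24 h and 12.01 to 12.50 in the periinfarct area at 24 h, with differences of -0.78 ± 0.26 (adjusted p = 0.0239, limma) and -0.94 ± 0.26 (adjusted p = 0.00546, limma). Atp5b was called in the periinfarct area at 24 h alone, at -0.68 ± 0.24 (adjusted p = 0.025, limma), and its core value at 24 h, -0.54, had an adjusted p of 0.0862 in limma. Neither was called at 3 d, where Atp5a1 was at -0.59 and -0.41 and Atp5b at -0.45 and -0.28 in core and periinfarct area. The call of Atp5a1 in the core at 24 h was lost when core pool 1 or 2, or healthy pool 19 or 20, was left out (adjusted p = 0.0535 to 0.0816), and that of Atp5b without periinfarct pool 1 or healthy pool 19 (0.0749 and 0.0917).

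**Figure D2:**
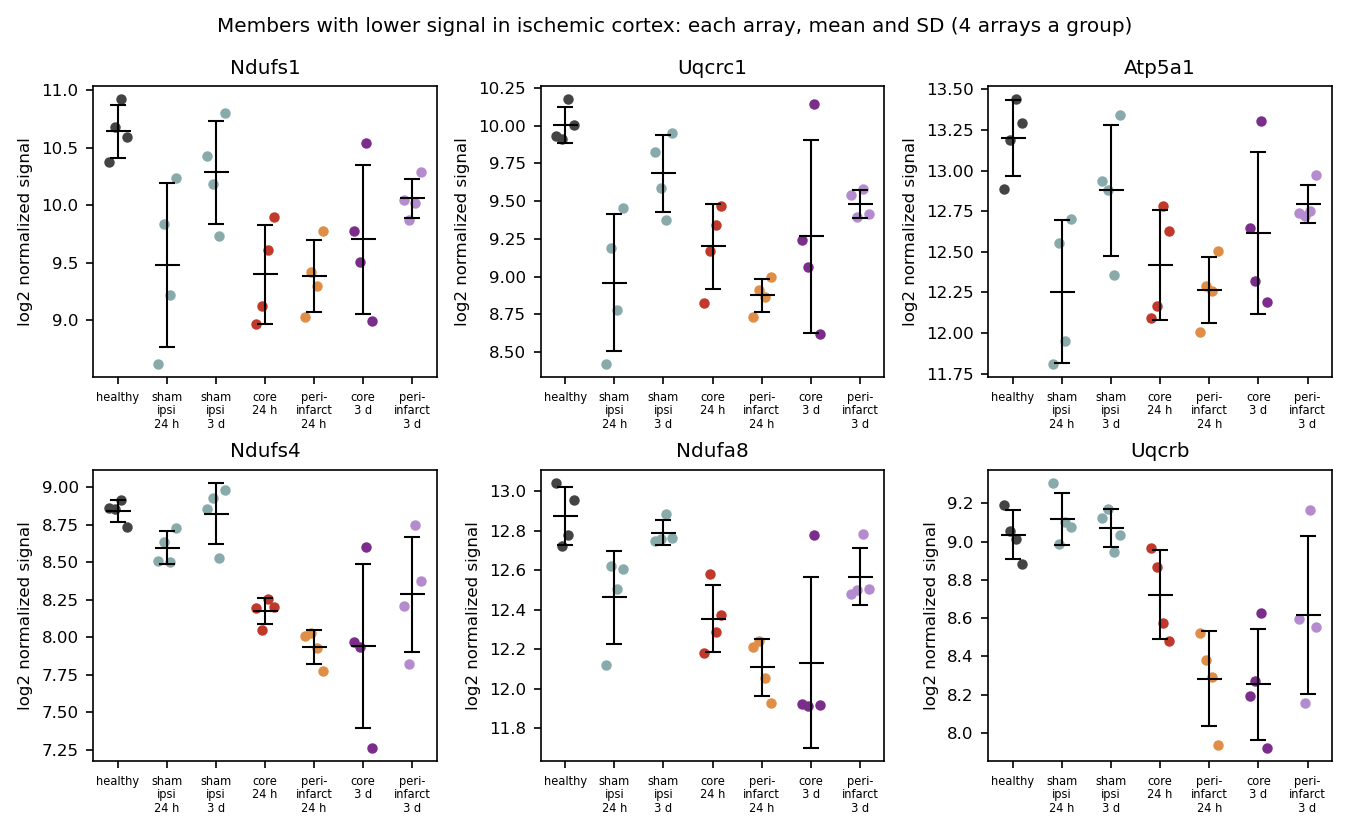
Log2 normalized signal on each array for 6 members that were lower in ischemic cortex, in healthy, sham ipsilateral and ischemic groups; points are arrays of 4 pools a group, the bar is the mean and the whiskers are 1 SD. In the upper row sham cortex at 24 h spreads as low as the core, and in the lower row Ndufs4 and Uqcrb in sham cortex stay near healthy cortex.

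At 24 h these 4 genes read about as low in sham as in ischemic cortex. Sham ipsilateral arrays at 24 h read 8.62, 9.84, 9.22 and 10.24 for Ndufs1 and 8.42, 9.19, 8.78 and 9.45 for Uqcrc1, all below the healthy arrays. Against healthy cortex the sham differences were -1.16 for Ndufs1, -1.04 for Uqcrc1, -0.95 for Atp5a1 and -0.72 for Atp5b. limma called 0 members in sham cortex at 24 h and 0 of the table's 20298 tested probes (0%), the lowest adjusted p over all probes being 0.0841. An unadjusted p below 0.05 was found for 9 of the 22 members and for 5579 of the table's 20298 tested probes. Without pool 8, the sham array nearest to healthy cortex for Ndufs1 and Uqcrc1, 8 members were called and 11.5% of the table's probes. Lower were Ndufs1 (-1.41, adjusted p = 0.0301, limma), Uqcrc1 (-1.21, adjusted p = 0.0289, limma), Atp5a1 (-1.10) and Atp5b (-0.85). Higher were Cox5a (1.25), Ndufc2 (1.21), Ndufs8 (1.12) and Ndufb3 (1.05). The sham array of pool 5 was the lowest of all 4 for Ndufs1, Uqcrc1, Atp5a1 and Atp5b.

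Set against sham of the same time, the differences of Ndufs1, Uqcrc1, Atp5a1 and Atp5b at 24 h lay between -0.10 and 0.24 in core and periinfarct area, with adjusted p from 0.589 to 0.984 in limma and an SE of 0.24 to 0.36. In this comparison the core at 24 h kept the calls of Atp5sl (-0.47) and Cox6a2 (0.80), where 13.1% of the table's probes were called higher and 11.8% lower. The periinfarct area at 24 h had 5 calls, Uqcrb (-0.83), Ndufc2 (-0.82), Ndufs4, Atp5sl (-0.58) and Cox6a2 (0.54), where 15% were higher and 19.2% lower. The core at 3 d had 6, Ndufs4, Uqcrb (-0.82), Ndufa8 (-0.66), Atp5sl (-0.65), Cox6b2 (1.60) and Ndufaf1 (0.47), where 22.8% were higher and 32.8% lower. The periinfarct area at 3 d had Ndufs4 and Cox6b2 (0.90), where 11.7% were higher and 5.93% lower. Neutrophil markers, summed over 6 genes, were also raised in some sham arrays at 24 h (log2 of the summed signal 6.93 to 10.81, against 6.10 to 6.78 in healthy cortex and 11.35 to 12.13 in the core at 24 h), and their part in the sham values was not tested.

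In sham cortex at 24 h another set moved upward by similar amounts. Cox5a was 1.11 higher than healthy, Ndufc2 1.04, Ndufb3 0.89 and Ndufs8 0.89 (adjusted p from 0.0841 to 0.102, limma), and the probes that read these 4 genes were made to expressed sequence tags and read low signals. Over the 44 arrays, deviations from the group means were correlated, so that only spread within groups counts. Those of Ndufs1, Uqcrc1, Atp5a1 and Atp5b correlated with each other at r = 0.89 to 0.95. Those of Cox5a, Ndufb3, Ndufc2 and Ndufs8 did so at 0.79 to 0.86, and the sets correlated with each other at -0.90 to -0.71. These are descriptions over arrays that share groups, slides and normalization.

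Probes made to the RefSeq transcripts of those 4 genes that lie outside the table read differently. For Ndufs8, a complex I subunit that carries iron-sulfur clusters, the brighter RefSeq probe fell by 0.48 in the core at 24 h (adjusted p = 0.0079, limma without the filter), by 0.64 in the periinfarct area at 24 h (adjusted p = 0.000397) and by 0.45 in the core at 3 d (adjusted p = 0.00664), where the tag probe read 0.48, 0.30 and 0.18 higher than healthy. This RefSeq probe also read -0.38 in sham cortex at 24 h (adjusted p = 0.12). For Ndufb3 it fell by 0.40 in the core at 3 d (adjusted p = 0.0127), where the tag probe read 0.32 higher. For Cox5a and Ndufc2 these probes were not called in the 3 groups, with differences between -0.31 and -0.02. The table also held a second, dim probe for Ndufc2, made to its RefSeq transcript, which read 0.25, 0.96 and -0.18 from healthy in the 3 groups with an SE of 0.89 and no call. Direction for these genes therefore rested on the probe.

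Ndufa8, an accessory complex I subunit that falls outside the rule for named genes and is given because it was called in 3 groups, read 12.73 to 13.04 in healthy cortex. It was 12.18 to 12.58 in the core at 24 h (-0.52 ± 0.16, adjusted p = 0.0129, limma) and 11.93 to 12.24 in the periinfarct area at 24 h (-0.76 ± 0.16, adjusted p = 0.000282, limma). At 3 d the core read 11.92, 11.91, 12.78 and 11.92, with pool 11 alone in the healthy range (-0.74, adjusted p = 0.000201, limma). Sham arrays at 24 h, 12.12 to 12.62, were below healthy too, at -0.41 (adjusted p = 0.128, limma).

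Uqcrb, the complex III subunit that helps bind ubiquinone, read 9.19, 9.06, 9.01 and 8.88 in healthy cortex and 8.52, 8.38, 8.30 and 7.94 in the periinfarct area at 24 h, a fall of 0.75 ± 0.16 (adjusted p = 0.000338, limma). The core went from 8.97, 8.87, 8.57 and 8.48 at 24 h, which was not called, to 8.19, 8.27, 8.63 and 7.92 at 3 d, a fall of 0.78 ± 0.16 from healthy (adjusted p = 0.000102, limma). Sham arrays at 24 h, 8.99 to 9.31, were not below healthy. Yet the array holds 2 further probes to the same RefSeq transcript, which the CV filter removed, and these read between -0.11 and 0.10 from healthy in the core at 24 h, the periinfarct area at 24 h and the core at 3 d, with no call. The fall of Uqcrb was seen by 1 of its 3 probes.

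Atp5sl, now named Dmac2, is counted here by its symbol and takes part in the assembly of complex I rather than in the ATP synthase. It read 8.88 to 9.18 in healthy cortex, 8.30 to 8.60 in the core at 24 h, 7.85 to 8.66 in the periinfarct area at 24 h and 8.23 to 8.81 in the core at 3 d. The differences were -0.55 ± 0.14, -0.65 ± 0.14 and -0.60 ± 0.14 (adjusted p = 0.00408, 0.000539 and 0.000714, limma). No array of these groups overlapped healthy cortex, and sham at 24 h was at -0.08. A second table probe of the gene gave -0.42 (not called), -0.49 (adjusted p = 0.0344) and -0.60 (adjusted p = 0.00671, limma without the filter). It was the 1 complex V symbol called lower against sham of the same time as well as against healthy cortex.

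Cox6a2 rose at 24 h. It read 9.41, 9.15, 9.08 and 8.93 in healthy cortex and 9.69, 9.85, 10.11 and 9.63 in the core at 24 h, with no overlap, a rise of 0.68 ± 0.17 or 1.60-fold (adjusted p = 0.0026, limma). The periinfarct area at 24 h read 9.60, 9.15, 9.81 and 9.70, 0.42 ± 0.17 higher (adjusted p = 0.0492, limma), with 1 array in the healthy range. The periinfarct call was lost without any one of periinfarct pools 1, 3 and 4 (adjusted p = 0.0891 to 0.162) and of healthy pools 18, 19 and 20 (0.0765 to 0.152). At 3 d the core read 8.82 to 9.57 and the periinfarct area 8.94 to 9.90, differences of 0.06 and 0.16 that were not called. Sham ipsilateral arrays at both times, 8.71 to 9.19, did not exceed healthy cortex.

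Cox6b2 rose at 3 d. It read 6.16, 5.93, 5.68 and 6.15 in healthy cortex and 5.61 to 6.85 in the core at 24 h, a difference of 0.25 that was not called. In the core at 3 d it read 7.85, 7.84, 6.67 and 7.90, a rise of 1.58 ± 0.29 or 2.99-fold (adjusted p = 2.71e-05, limma), with pool 11 the low array and still above all healthy arrays. In the periinfarct area at 3 d it read 7.32, 7.70, 5.94 and 6.51, a rise of 0.89 ± 0.29 (adjusted p = 0.0316, limma) that overlapped healthy cortex in pool 11. This periinfarct call was lost without periinfarct pool 9 or 10 (adjusted p = 0.132 and 0.224) and without healthy pool 18 or 19 (0.0681 and 0.0989). Sham and contralateral arrays, 5.54 to 6.63, lay below every core array at 3 d. Microglia and macrophage markers were high in the same group. Their summed signal over 9 genes was 16.41 to 17.18 in the core at 3 d and 13.55 to 13.85 in healthy cortex (log2). Read without the filter, the median log2 difference of these markers was 0.76 in the core and 0.87 in the periinfarct area at 24 h. At 3 d it was 2.74 and 2.07. Of the 9 markers, 5 and 6 were called higher at 24 h and 9 and 8 at 3 d. Cox6b2 was called in neither area at 24 h and in both at 3 d. The part of these cells in the rise of Cox6b2 was not tested.

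Ndufaf1, an early assembly factor of complex I, was 0.40 ± 0.14 higher in the core at 3 d (adjusted p = 0.0141, limma), with 6.84 to 7.17 against 6.46 to 6.78 in healthy cortex. The call was lost without core pool 9 or healthy pool 19 (adjusted p = 0.0551 and 0.0507). Ndufaf4, another assembly factor, was not called with its table probes. A further probe outside the table read 0.39 higher in both areas at 24 h (adjusted p = 0.00146 in the core and 0.00101 in the periinfarct area, limma without the filter). Of the remaining complex IV members, Cox4i2 read between 0.07 and 0.32 above healthy in the 4 groups without a call. Cox8b, the muscle form of Cox8, spread from 5.13 to 9.66 in the core at 3 d, where pool 12 read 9.66 and the other 3 pools 5.13 to 6.76.

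**Figure D3:**
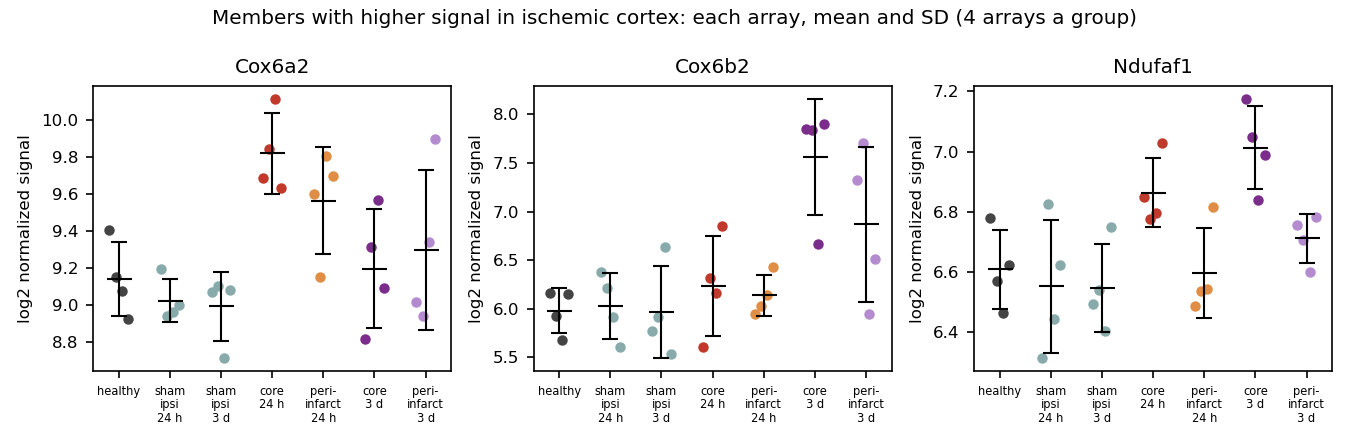
Log2 normalized signal on each array for the 3 members called higher in an ischemic group; points are arrays of 4 pools a group, the bar is the mean and the whiskers are 1 SD. Cox6a2 is high in the 24 h groups, Cox6b2 in the 3 d groups with pool 11 the lowest core array at 6.67, and Ndufaf1 in the core at 3 d.

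Core and periinfarct area of the same pools were compared to see where the lesion's zones differ. limma called 0 members at 24 h (1 with an unadjusted p below 0.05) and 0 at 3 d (5 with an unadjusted p below 0.05), where 0.256% and 20.8% of the table's probes were called. Of the table's 20298 tested probes, 2648 at 24 h and 7622 at 3 d had an unadjusted p below 0.05. With the pool as a block, the count was 0 at 24 h and 4 at 3 d, where 28.9% of the table's probes were called. Those 4 were Ndufa8 (-0.43, core lower, adjusted p = 0.0235), Atp5sl (-0.39, adjusted p = 0.0382), Ndufaf1 (0.30, core higher, adjusted p = 0.0408) and Cox6b2 (0.69, adjusted p = 0.0451, limma). In the fit with no block, without core pool 11 alone 5 members were called at 3 d, and without periinfarct pool 10 alone 3. The share of the table's probes called in these refits is not given, so these counts are not a result about the members.

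From 24 h to 3 d, which are separate animals, the core changed in Cox6b2 (1.33 higher at 3 d), Cox6a2 (-0.62) and Uqcrb (-0.47), where 40.8% of the table's probes were called. In the periinfarct area Atp5sl (0.44) and Ndufa8 (0.46) were higher at 3 d than at 24 h, where 19.6% of the table's probes were called. Without core pool 11 at 3 d 5 members changed in the core, and the share of the table's probes in that refit is not given. The call of Uqcrb between these times was lost without any one of core pools 1 and 2 at 24 h and 9 and 12 at 3 d (adjusted p = 0.0557 to 0.101, limma), and its 2 further probes read 0.01 and -0.01 here. In the periinfarct area 1 or 0 members changed without any one of pools 1, 3 or 4 at 24 h or 9, 11 or 12 at 3 d.

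The comparisons made outside the lesion called 0 members. Sham ipsilateral cortex at 3 d differed from healthy in 0 members (0 with an unadjusted p below 0.05, and 0% of the table's probes called). Contralateral cortex of ischemic rats against sham contralateral cortex also gave 0 members called by limma at 24 h and at 3 d (0 with an unadjusted p below 0.05 at both times, 0% of the table's probes called). Contralateral cortex was not tested against healthy cortex. At 24 h its arrays read lower than healthy cortex for Ndufs1 (9.45 to 10.20 against 10.37 to 10.92), Uqcrc1, Atp5a1 and Atp5b. They read higher for Cox5a (5.03 to 5.46 against 4.35 to 4.94), Ndufb3 and Ndufs8, and for Ndufs4 and Uqcrb they overlapped. The share of the table's probes that read apart in this way is not given, so these readings are not set against the table as a whole. Sham contralateral arrays at 24 h read 8.20 to 10.90 for Ndufs1.

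Pool 11 lay near healthy cortex for most members in both areas at 3 d. Without it the core at 3 d had 9 calls, with Atp5a1 added, and the periinfarct area at 3 d had 4, Ndufs4, Ndufa8, Uqcrb and Cox6b2. Calls over all 41012 probes, without the filter, rose as well. They went from 22.3% lower and 16% higher to 24.2% and 17.7% in the core. In the periinfarct area they went from 6.12% lower and 7.25% higher to 11.6% and 10.3%. Without pool 11 core and periinfarct area at 3 d differed in 2 members, Atp5sl and Ndufa8, and the share of all probes is not given for that refit. Neuronal markers summed to 16.05 in its core and 16.22 in its periinfarct area (log2), against 14.82 to 15.18 and 15.33 to 15.77 in the other 3 pools, and microglia and macrophage markers to 16.41 and 14.31, against 16.88 to 17.18 and 16.44 to 16.72. The part of these differences in the values of pool 11 was not tested.

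Some members followed the slide. Slides held 4 arrays each of several groups, and after group means were removed 87.1% of the variation of Cox7c, 83.9% of Atp5g3 and 80.5% of Atp5hl1 lay between slides, beside 19.3% to 54.0% for the other members reported. Slide means of Cox7c, a small complex IV subunit, ran from -1.54 to 1.81 around healthy cortex, so that its group differences of up to 0.83 in ischemic cortex had an SE of 0.89. With the slide as a block, Atp5g3 (subunit c of the ATP synthase) was called lower in core and periinfarct area at 3 d (-0.48, adjusted p = 0.0196, and -0.50, adjusted p = 0.0477, limma), where 35.1% and 6.31% of the table's probes were called lower. The same block ended 10 of the 26 calls. These were Ndufs1, Uqcrc1, Atp5a1 and Ndufa8 in the core at 24 h (adjusted p from 0.101 to 0.165, limma), Atp5b and Cox6a2 in the periinfarct area at 24 h (adjusted p = 0.0596 and 0.151), Ndufs1 and Uqcrc1 in the core at 3 d (adjusted p = 0.134 and 0.11) and Ndufs4 and Cox6b2 in the periinfarct area at 3 d (adjusted p = 0.0974 and 0.124). Within the 1 slide that held both groups, core at 24 h minus healthy was -1.47 for Ndufs1 and -0.68 for Ndufs4, periinfarct area at 24 h minus healthy -1.14 for both genes, and periinfarct area at 3 d minus healthy 1.55 for Cox6b2. The core at 3 d shared 1 slide with healthy cortex, through core pool 11 and healthy pool 17. There Ndufs1 read 10.54 in the core against 10.37, Ndufs4 8.60 against 8.86 and Cox6b2 6.67 against 6.16. Each of these pairs is 1 array against 1, so they do not show whether a difference holds within slides.

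**Figure D4:**
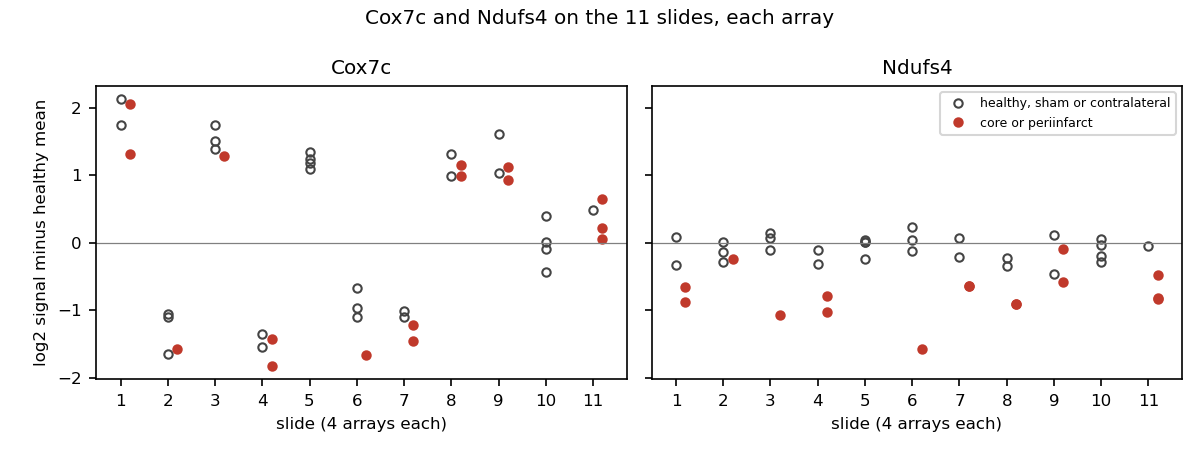
Log2 signal minus the healthy mean for Cox7c and Ndufs4 on each of the 11 slides; each point is an array, filled for core or periinfarct area and open for healthy, sham or contralateral cortex. Cox7c sorts by slide, with slide means from -1.54 to 1.81, while Ndufs4 is low in ischemic arrays on most slides.

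Calls among the 60 other chain genes were nearly all falls. Of them, 15 fell and 0 rose in the core at 24 h, where 12.9% of all 41012 probes were called lower and 10.1% higher without the filter. At the same time 32 fell and 0 rose in the periinfarct area, against 17.6% and 11.3%. In the core at 3 d, 28 fell and 1 rose, against 22.3% and 16%, and in the periinfarct area at 3 d 6 fell and 0 rose, against 6.12% and 7.25%. Their medians were -0.18, -0.29, -0.27 and -0.17, and no call reached 2-fold. Sham cortex at 24 h had a median of 0.03 and 0 calls by limma (14 with an unadjusted p below 0.05, as had 7894 of all 41012 probes).

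In the periinfarct area at 24 h the falls were in 17 of 28 complex I genes, 1 of 4 complex II, 4 of 6 complex III, 5 of 9 complex IV and 5 of 13 complex V genes. Uqcr11, a small complex III subunit, read 15.37, 15.29, 15.22 and 15.30 in healthy cortex and 14.74, 14.78, 14.24 and 14.02 in the periinfarct area at 24 h, a fall of 0.85 (adjusted p = 2.25e-05, limma without the filter). Its sham arrays at 24 h, 15.29 to 15.40, lay at the healthy level. Uqcrc2, the second core subunit of complex III, fell by 0.59, 0.63 and 0.78 in the core at 24 h, the periinfarct area at 24 h and the core at 3 d, and its sham arrays at 24 h were below healthy as well, at -0.40 (adjusted p = 0.174, limma). Ndufs3, a core complex I subunit, fell in all 4 groups, by 0.56, 0.56, 0.69 and 0.42, and Ndufv1, which binds NADH, by 0.49, 0.69 and 0.58 in the first 3. In sham cortex at 24 h Ndufv1 was at -0.54 (adjusted p = 0.0931, limma), about as low as in the core, and Ndufs3 at -0.19. Cox4i1, the common form of the complex IV subunit, read 13.29 to 13.48 in healthy cortex and 12.88 to 13.00 in the periinfarct area at 24 h, and fell by 0.38, 0.45 and 0.59, with sham arrays at 24 h at 13.11 to 13.29 (-0.20).

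Complex II split within itself. Sdha, its flavoprotein and an enzyme of the citric acid cycle, read 13.96 to 14.07 in healthy cortex and 13.44 to 13.61 in the periinfarct area at 24 h, and fell in all 4 groups, by 0.47, 0.49, 0.35 and 0.31. Sham arrays at 24 h, 13.58 to 13.86, were also below healthy for Sdha, at -0.31 (adjusted p = 0.112, limma). Sdhb, its iron-sulfur subunit, was 0.36 higher in the core at 3 d (adjusted p = 0.00724, limma) and within 0.15 of healthy in the others. Sdhc and Sdhd, the membrane anchors, were not called.

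Against sham of the same time, 10, 22, 25 and 2 of the 60 genes were lower in the core at 24 h, the periinfarct area at 24 h, the core at 3 d and the periinfarct area at 3 d, where 7.32%, 12.2%, 20.9% and 3.42% of all probes were lower. Without pool 11, 24 were lower in the periinfarct area at 3 d, where 11.6% of all probes were. With the arrays scaled to the 75th percentile in place of quantile normalization, the lower counts against healthy were 5, 25, 15 and 4, where 11.8%, 14.3%, 21.1% and 6.09% of all probes were lower, so that in the core at 24 h the share of the 60 was below that of all probes. With the slide as a block they were 9, 27, 31 and 1, where 9.1%, 14.2%, 22.9% and 3.65% were lower. Core and periinfarct area differed in 0 of these genes at 24 h and in 1 at 3 d (0.195% and 11.7% of all probes). From 24 h to 3 d, 5 rose and 6 fell in the core and 7 rose and 1 fell in the periinfarct area (27.1% and 13.1% of all probes).

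**Figure D5:**
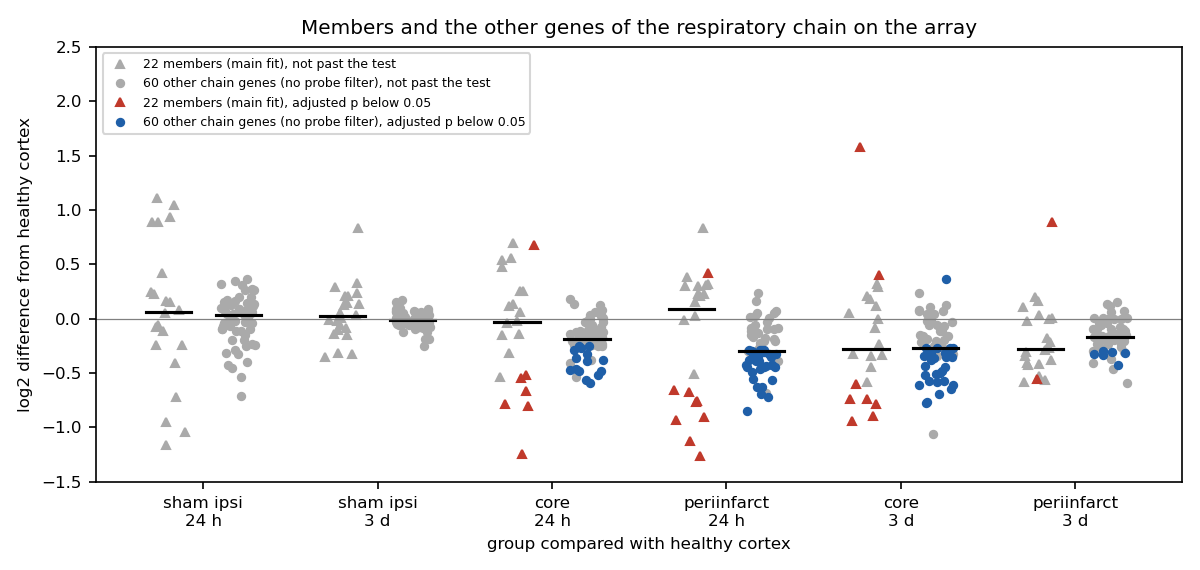
Log2 difference from healthy cortex for the 22 members (triangles) and the 60 other chain genes analysed without the probe filter (circles) in sham ipsilateral and ischemic groups; coloured points have an adjusted p below 0.05 and the bar is the median. The 60 genes lie mostly below 0 in ischemic groups, with medians of -0.18, -0.29, -0.27 and -0.17, and around 0 in sham cortex.

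Other genes of energy metabolism and markers of cell types were read in the same arrays without the filter, so that the shares of all probes called are those given with the 60 genes. Of 17 citric acid cycle genes, 7, 10, 7 and 3 fell in the core at 24 h, the periinfarct area at 24 h, the core at 3 d and the periinfarct area at 3 d, and 1, Cs (citrate synthase), rose by 0.61 in the core at 3 d. Of 24 measured cytochrome c, quinone and assembly genes, 5, 8, 11 and 2 fell and 0, 0, 2 and 1 rose. Of 12 regulators of mitochondrial biogenesis, 1, 1, 3 and 2 fell and 2, 3, 2 and 0 rose. Ppargc1a (PGC-1alpha), the coactivator of that program, fell by 0.53 in the periinfarct area at 24 h and by 1.28 and 0.57 at 3 d in core and periinfarct area. Pprc1, a relative of it, rose by 0.72, 0.65 and 0.36 in the first 3 groups, and Tfam, which binds and packages mitochondrial DNA, by 0.29 and 0.46 at 24 h.

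Of 16 measured glycolytic genes, 3, 9, 8 and 3 fell and 2, 0, 2 and 2 rose. Aldoc (brain aldolase) fell by 1.02, 1.15, 1.49 and 0.78 and Ldhb (lactate dehydrogenase B) by 0.85, 1.07, 1.23 and 0.70, while Pfkl (liver phosphofructokinase) was 0.59, 0.67 and 0.56 higher in the core at 24 h, the core at 3 d and the periinfarct area at 3 d. Hk2 (hexokinase 2) was 2.33 higher in the core at 3 d. Of 11 measured genes of the hypoxia response, 5, 4, 3 and 2 rose and 0, 2, 3 and 0 fell, with Hmox1 (heme oxygenase) up by 5.25 and Slc16a3 (the lactate exporter MCT4) by 3.60 in the core at 24 h. Of 14 measured genes of mitochondrial membranes and import, 4, 3, 2 and 0 rose and 1, 3, 2 and 0 fell.

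Neuronal markers fell with the chain. Of 12 measured, 4, 8, 10 and 3 fell in the 4 groups and 0 rose, with medians of -0.44, -0.87, -1.01 and -0.41, and their summed log2 signal was 16.62 to 16.66 in healthy cortex, 15.72 to 16.13 in the core at 24 h, 15.25 to 15.75 in the periinfarct area at 24 h, 14.82 to 16.05 in the core at 3 d and 15.33 to 16.22 in the periinfarct area at 3 d. Sham cortex at 24 h read 16.38 to 16.64. In these pieces of tissue fewer cells of a type and less RNA per cell cannot be told apart, and the part of neuronal loss in the chain values was not tested. Of 7 astrocyte markers 1, 1, 3 and 3 rose and 4, 3, 3 and 0 fell, of 6 oligodendrocyte markers 2, 3, 1 and 0 fell and none rose, and of 9 microglia and macrophage markers 5, 6, 9 and 8 rose. Of 6 neutrophil markers 4, 4, 6 and 5 rose, of 5 endothelial markers 1, 1, 0 and 0 rose, and of 6 measured mural cell markers 1, 2, 4 and 2 rose and 1, 1, 0 and 0 fell.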

How the data were processed

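RNA of 20 animal pools (numbered in the labels, each of 3 rats per the study's methods), from 1 to 3 cortical areas each, was hybridised to 44 Agilent whole rat genome arrays of 1 colour and scanned, and the deposited intensity is the processed signal of each spot from Agilent Feature Extraction 10.7.3.1, with flags. A further table holds log2 values as the authors normalized and filtered them, with a CV in percent; its 20395 rows hold 20 control probes and 20375 probes of the array. The labels' labelling text describes a small RNA kit, which differs from the study's methods for these arrays.

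Here signals were thresholded at 1, put on a log2 scale and quantile normalized, outlier spots were set missing (106 tested probes miss a value on some array) and spots of a probe averaged. The study's 3 filters (the 20th percentile of signal in 75% of the arrays of a group, a positive and significant flag in 75% of a group, and a CV over 2.5%) kept 35035, 35945 and 37007 of 41012 probes and together 30539, 20298 of them in the table. limma 3.58.1 in R 4.3.3 was fitted to the 11 group means (33 residual degrees of freedom) with Benjamini-Hochberg adjustment. The CV filter looks at all arrays together, so it favours probes that differ between groups. Scripts were tested on simulated data, in which 200 of 30539 probes changed between core at 24 h and healthy cortex. The fit called 2% of changes of 0.5 and 41% of changes of 1 on the log2 scale, with 5 false calls. More probes were called in the real comparison, which alters the adjusted p, so these shares are not those of the real data. A gene that was not called may still have changed. The highest correlation between arrays was 0.992, so no array was taken for a repeat.

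A gene is read by its brightest probe that passed the filters among those the table gives its symbol, and RefSeq symbols named 16806 probes. Named genes were a list of central chain genes where measured, the 2 largest falls and the largest rise called per complex in each ischemic group, and members called at 2-fold or in sham or contralateral cortex, which named 14 of the 22. One member is included in the counts and medians and is not reported here. Members and lists (chain and assembly, citric acid cycle, glycolysis, hypoxia response, biogenesis, membranes and import, and 7 cell types) were chosen with earlier results of these data known. Core, periinfarct and contralateral samples that share a number are areas of 1 set of pooled rats, which pairs them. The mean correlation of same-pool deviations was 0.149 between core and periinfarct area at 24 h (lowest -0.017) and -0.004 at 3 d (lowest -0.245). Alternatives were another scaling, background correction, the authors' table, filters, the slide or pool as a block, 2-fold calls, probe means, other controls and leaving out arrays, and those on sham with slide, healthy with sham, pool 11, RefSeq probes and the genes outside the table were added after the data were seen.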

Additional observations from a re-analysis of the deposited data

Results flagged for a closer look

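Single arrays stood far from the other 3 of their group for 10 of the 147 combinations of member and group looked at, and chance flags about 1 in 20. At 3 d, pool 11 read 6.67 for Cox6b2 in the core where the other 3 pools read 7.84 to 7.90, and for Ndufa8 it read 12.78 in the core and 12.78 in the periinfarct area where the others read 11.91 to 11.92 and 12.48 to 12.51. Sham ipsilateral pool 15 at 3 d stood apart for 3 members, at 9.41 for Atp5g3 (others 10.94 to 11.06), 8.71 for Cox6a2 (9.07 to 9.10) and 12.88 for Ndufa8 (12.75 to 12.76). Periinfarct pool 4 at 24 h read 6.82 for Ndufaf1 (6.49 to 6.54) and 6.53 for Ndufaf4 (5.34 to 5.51). At 3 d periinfarct pool 9 read 4.06 for Ndufb3 (4.41 to 4.46) and pool 12 read 12.97 for Atp5a1 (12.72 to 12.75).

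The change from healthy differed between 24 h and 3 d, by limma's test of the difference, for 5 members. In the core Cox6b2 was 1.33 higher, Cox6a2 -0.62 and Uqcrb -0.47 at 3 d than at 24 h, and in the periinfarct area Atp5sl was 0.44 and Ndufa8 0.46 higher at 3 d.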

How the results depend on the processing

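The counts of members called against healthy cortex were 7, 9, 8 and 2 in the core at 24 h, the periinfarct area at 24 h, the core at 3 d and the periinfarct area at 3 d. The share of all probes called also moved with several settings, and the counts below are not set beside it. All 26 calls were kept with 75th percentile scaling, normexp background correction, the deposited table, no filter and a stricter filter. They were also kept with probe means, which among the genes called altered Atp5sl alone. The RefSeq setting swapped probes only for Cox5a, Ndufb3, Ndufc2 and Ndufs8, and not for Uqcrb. None of the genes swapped held one of the 26 calls, so that setting could end none of them. With the slide as a block 16 were kept, with only the 2 groups in the fit 21, with contralateral cortex as control and the pool as a replicate block 18, with healthy and sham as control 17, and with sham as control 14. In the core at 24 h the count was 3 with the slide block, 1 at 2-fold, 2 against sham, 4 against contralateral cortex with the replicate block, and 3 against sham with the slide block. In the periinfarct area at 24 h it was 2 at 2-fold, 5 against sham and 4 against sham with the slide block, and in the core at 3 d 1 at 2-fold. In the periinfarct area at 3 d it was 1 with the slide block, 0 at 2-fold, 0 with only the 2 groups, 4 without pool 11 and 1 against sham with the slide block. Core and periinfarct area at 3 d, with 0 calls, gave 2 with the deposited table, 2 with the stricter filter, 4 with the replicate block (0 at 24 h) and 2 without pool 11. The core at 3 d against 24 h, with 3, gave 5 with the slide block, 1 at 2-fold, 1 with only the 2 groups and 5 without pool 11. The periinfarct area at 3 d against 24 h, with 2, gave 1 with 75th percentile scaling, 0 with the slide block, 0 at 2-fold, 1 with probe means and 0 with only the 2 groups. The median in the periinfarct area at 24 h, 0.09, was 0.22 with 75th percentile scaling, -0.13 with the slide block, -0.10 against sham, -0.33 against contralateral cortex with the replicate block, -0.13 against healthy and sham, -0.15 against sham with the slide block and -0.14 with RefSeq probes.

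Against sham, the difference turned for Atp5a1 (0.16) and Uqcrc1 (0.24) in the core at 24 h and for Atp5a1 (0.011), Atp5b (0.041) and Ndufc2 (-0.82) in the periinfarct area at 24 h. Against sham with the slide block it turned for Atp5a1 (0.26), Ndufs1 (0.14) and Uqcrc1 (0.34) in the core at 24 h and for Atp5a1 (0.00497) and Atp5b (0.065) in the periinfarct area at 24 h. With RefSeq probes it turned for Ndufs8 in the core at 24 h (-0.48), the periinfarct area at 24 h (-0.64) and the core at 3 d (-0.45) and from 24 h to 3 d in the periinfarct area (0.43), and for Ndufb3 in the core at 3 d (-0.40). The cause was not tested.

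Leaving out 1 array at a time gave 5 to 8 members in the core at 24 h, 7 to 9 in the periinfarct area at 24 h, 5 to 10 in the core at 3 d (5 without healthy pool 19) and 0 to 3 in the periinfarct area at 3 d (0 when periinfarct pool 9 or 10, or healthy pool 18 or 19, was left out). It gave 0 to 0 for core against periinfarct area at 24 h, 0 to 5 at 3 d, 2 to 5 for the core at 3 d against 24 h, 0 to 2 for the periinfarct area at 3 d against 24 h, 0 to 8 for sham ipsilateral cortex at 24 h and 0 to 0 for sham at 3 d and both contralateral comparisons. The medians ranged from -0.26 to 0.11, -0.01 to 0.14, -0.42 to -0.09 and -0.36 to -0.10. Signal was well above background on all 44 arrays for 20 members and on 43 for Cox5a and Ndufc2.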
